A study of Rattus norvegicus with 12 samples.

Results

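The small leucine-rich proteoglycans and the related chondroadherins were followed in rat knee articular cartilage after surgery that induces osteoarthritis (OA) and after sham surgery. The family was taken as 10 genes, namely Bgn, Dcn, Fmod, Lum, Prelp, Epyc, Ogn, Omd, Chad and Chadl. Every probe set of the array whose only gene symbol was one of these names was used. This gave 13 of the 31099 probe sets, which stood for 9 of the 10 genes, since no probe set named Epyc alone. Ogn had 4 probe sets, Chadl had 2 and the other 7 genes had 1 each. All 13 probe sets passed the filter on low values (log2 above 4 in at least 3 of the 12 arrays), and their lowest value in any array was 7.72.

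Total RNA from knee articular cartilage was measured on 12 one-colour Affymetrix arrays in 4 groups of 3: sham surgery at 2 weeks, OA surgery at 2 weeks, sham surgery at 8 weeks and OA surgery at 8 weeks. The labels refer to a published rat model for the operation, and give no strain, sex, age or genetic change. They number the arrays of each group from 1 to 3 but do not say that each is a different animal, and a p-value here reflects the spread of these samples, which may be technical. Precision is limited by how few arrays each group has. All values are log2 array values, and a level of one probe set says nothing about another, so only differences within a probe set are compared. In whole tissue, fewer cells of a type and less RNA per cell cannot be told apart.

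The arrays had 48.3% to 49.85% of probe sets above log2 4, and arrays of one group correlated at 0.9711 to 0.9926. Of 10 cartilage marker genes, 8 had a probe set, and these averaged 13.79 to 14.21 in the sham and 13.51 to 13.85 in the OA arrays at 8 weeks. In OA 4 of the 8 read higher and 4 lower, with 1, Col9a1, called lower by limma and 3 at an unadjusted p under 0.05. Levels of markers of other tissues are given for 8 weeks. The 14 skeletal muscle markers tested averaged 5.84 to 10.75 in the sham arrays and 10.18 to 14.70 in the OA arrays, with 0 called by limma, 8 at an unadjusted p under 0.05, Myh7 never above log2 4 and OA array 1 the highest. The 15 macrophage markers averaged 7.44 to 10.18 in sham and 6.48 to 6.62 in OA, with 4 called lower and Itgam never above log2 4. The osteoclast markers averaged 12.53 to 12.87 against 9.48 to 10.82, with all 5 tested called lower in OA and Calcr never above log2 4. The osteoblast and osteocyte markers averaged 11.62 to 11.95 against 10.11 to 10.75, with 3 of 8 called lower and Bmp3 and Sost never above log2 4. Synovial fibroblast, tendon and fibrocartilage markers averaged 12.05 to 12.67 against 11.65 to 12.12, with 1 of 10 called lower. The 7 endothelial markers tested averaged 5.47 to 6.78 against 4.72 to 5.38, with 0 called by limma, 4 at an unadjusted p under 0.05, and Esam, Tie1 and Vwf never above log2 4. The part of these tissues in the members' differences was not tested, apart from fits with the mean muscle or macrophage marker level as a covariate. At 8 weeks the macrophage levels of OA and sham did not overlap and the muscle levels barely did. Such fits therefore cannot separate a marker level from OA.

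Small leucine-rich proteoglycans are secreted proteins whose core is a curved stack of leucine-rich repeats, and most carry glycosaminoglycan chains. In cartilage they sit on the surface of collagen fibrils, where they influence fibril diameter and spacing, link fibrils to other matrix molecules and hold growth factors such as TGF-beta. Biglycan and decorin belong to class I, with chondroitin or dermatan sulfate chains. Fibromodulin, lumican, osteomodulin and PRELP belong to class II, in which keratan sulfate and sulfated tyrosines are common. Epiphycan and osteoglycin form class III, and chondroadherin is a class IV protein that binds type II collagen and integrins.

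Several of these genes lie side by side in the genome. In the RefSeq table of the GRCr8 assembly, Dcn was followed by Lum, Kera and Epyc, Optc by Prelp and Fmod, and Ogn by Omd and Aspn. Promoter sequences were in the RefSeq table for 7 members, namely Fmod, Lum, Epyc, Ogn, Omd, Chad and Chadl. Each window runs from 250 bases before to 50 bases after the gene start in GRCr8. The promoters of Fmod and Chad, the members whose levels correlated most closely with Bgn across the arrays, and of Ogn, which fell most over time in OA, are printed 5′ to 3′ on the gene's strand. Capitals mark the matches to the motifs searched.
Fmod, chr13:48045317-48045616, plus strand: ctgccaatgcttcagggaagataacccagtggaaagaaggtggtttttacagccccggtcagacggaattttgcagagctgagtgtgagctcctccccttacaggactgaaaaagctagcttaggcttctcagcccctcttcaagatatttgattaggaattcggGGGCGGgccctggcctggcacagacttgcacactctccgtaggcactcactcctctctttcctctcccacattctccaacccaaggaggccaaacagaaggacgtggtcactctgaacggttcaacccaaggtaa
Chad, chr10:80008795-80009094, plus strand: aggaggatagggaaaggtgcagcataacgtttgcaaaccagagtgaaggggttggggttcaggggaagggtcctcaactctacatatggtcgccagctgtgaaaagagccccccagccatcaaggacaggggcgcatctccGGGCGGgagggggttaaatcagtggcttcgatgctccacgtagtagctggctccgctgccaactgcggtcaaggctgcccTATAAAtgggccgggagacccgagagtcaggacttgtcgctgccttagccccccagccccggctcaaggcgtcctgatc
Ogn, chr17:15258946-15259245, minus strand: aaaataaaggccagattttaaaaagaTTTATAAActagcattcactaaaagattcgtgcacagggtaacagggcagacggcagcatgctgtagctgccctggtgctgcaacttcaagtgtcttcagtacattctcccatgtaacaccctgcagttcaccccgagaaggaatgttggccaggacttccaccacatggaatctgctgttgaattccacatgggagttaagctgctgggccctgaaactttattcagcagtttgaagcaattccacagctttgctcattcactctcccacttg
The letters of 4 motifs were searched on both strands. GGGCGG, the core of a GC box, was found in the promoters of Fmod and Chad, and 33.1% of the 33469 promoters of that length in the table held it. TATAAA, the core of a TATA box, was found in those of Chad and Ogn, against 14.2% of all promoters. In Chad it began at -29 from the gene start, and in Ogn 2 matches on opposite strands overlapped at -224 and -222. TGANTCA, a looser form of the AP-1 site with any base at N, was in none of the 7 windows, against 7.33% of all promoters. The SOX core ACAATG was in none of them either, against 13.2% of all promoters. These matches describe the sequence and show no binding.

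At 2 weeks after surgery none of the 9 measured members passed the test for OA against sham. Of the 9247 genes with a probe set of their own, 0.0% were called at an adjusted p under 0.05 (limma, Benjamini-Hochberg adjustment over 15934 probe sets), and 0 of the 9 members were called. No member had an unadjusted p under 0.05, while 269 of the 15934 probe sets did. Differences ran from -0.34 ± 0.234 (SE, n = 3) for Dcn to 0.09 ± 0.112 for Bgn, all with an adjusted p of 1. In no member were the OA and sham arrays separated, whereas 1.99% of all genes were wholly higher and 3.29% wholly lower in OA.

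At 8 weeks Bgn, the gene of biglycan, was lower in OA than in sham, and it was the only member called in this comparison. Of all 9247 genes 3.48% were called, 1.03% higher and 2.45% lower. Among the members 3 read higher and 6 lower, with a median difference of -0.21 against -0.03 over all genes. A total of 4 members had an unadjusted p under 0.05, as did 3423 of the 15934 probe sets. The OA and sham arrays did not overlap for 1 member in each direction, Dcn higher and Bgn lower, against 9.73% of all genes wholly higher and 15.8% wholly lower.

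**Figure D1:**
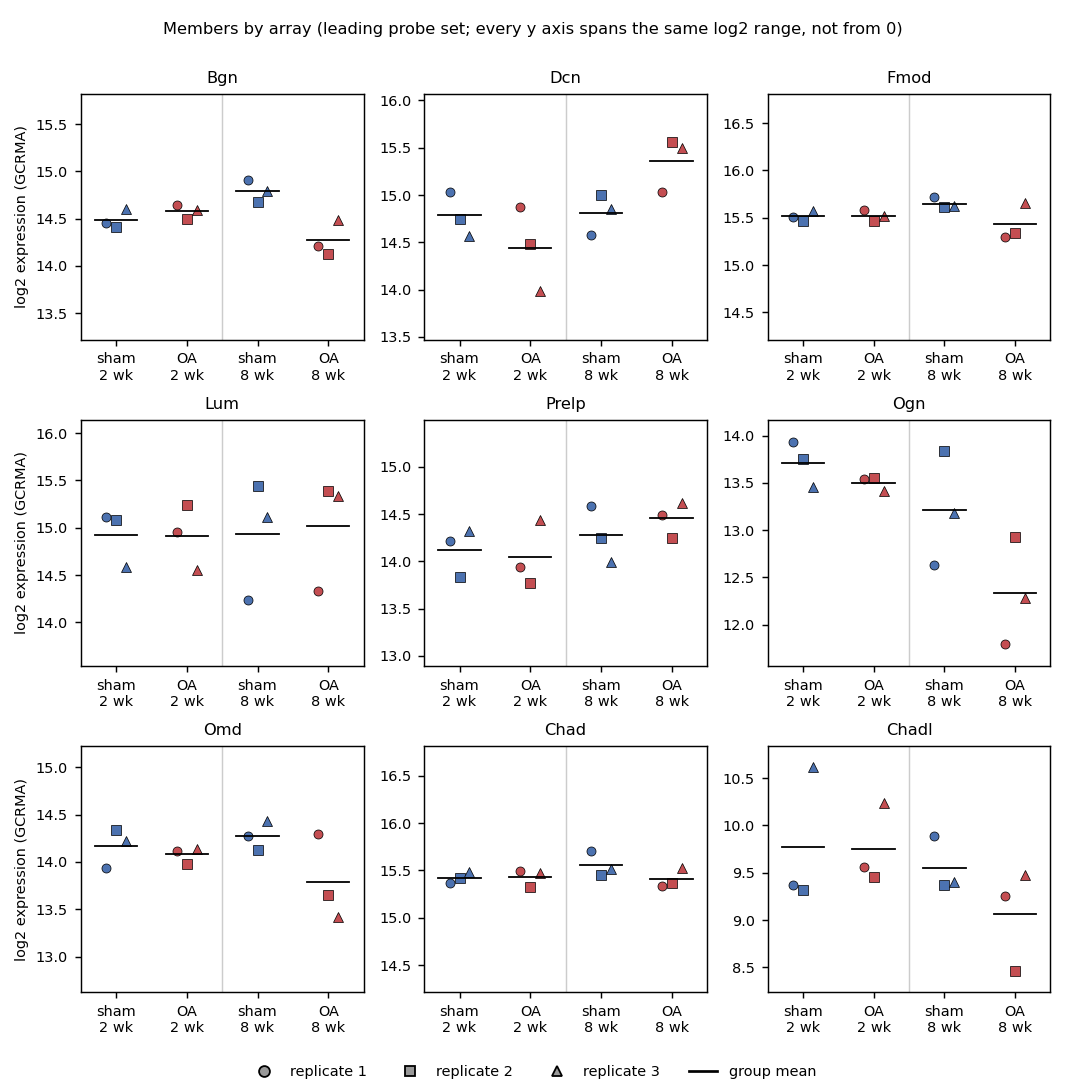
Log2 array value (y axis, the same span in each panel) of the leading probe set of 9 members in the 4 groups (x axis). Circles, squares and triangles are arrays 1, 2 and 3, and the bar is the group mean. Bgn in OA at 8 weeks (14.13 to 14.49) lies below the sham arrays of that time (14.68 to 14.91), Dcn lies above them, and same-numbered arrays of Lum sit together at 8 weeks.

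Bgn, measured by probe set 1367594_at, is the class I member with a pair of chondroitin or dermatan sulfate chains, and it can also act as a danger signal through Toll-like receptors. Its values were 14.45, 14.41 and 14.60 in sham and 14.64, 14.50 and 14.59 in OA at 2 weeks. At 8 weeks they were 14.91, 14.68 and 14.79 in sham and 14.21, 14.13 and 14.49 in OA. All 3 OA arrays at 8 weeks lay below all 3 sham arrays, while at 2 weeks the groups overlapped. The difference at 8 weeks was -0.52 ± 0.112 (SE, n = 3; 95% interval -0.77 to -0.27), 1.44-fold lower in OA, with an adjusted p of 0.0368 (limma). The same-numbered pairs differed by -0.71, -0.55 and -0.31.

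The call on Bgn was close to its threshold. It was lost in 9 of the 12 fits that left out 1 array, where the difference stayed between -0.63 and -0.45 and the adjusted p ranged from 0.0221 to 0.126. Only without OA array 2 at 2 weeks (adjusted p = 0.0485), sham array 3 at 2 weeks (0.0447) or OA array 3 at 8 weeks (0.0221) did it stay called. With the mean muscle marker level as a covariate the difference was -0.54 (adjusted p = 0.247), and with the macrophage level -0.70 (adjusted p = 0.082). Neither fit can separate a marker level from OA.

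Dcn, the gene of decorin, codes for the other class I proteoglycan, which carries 1 such chain and binds TGF-beta. Probe set 1370956_at gave 15.03, 14.75 and 14.57 in sham and 14.87, 14.48 and 13.98 in OA at 2 weeks. At 8 weeks it gave 14.58, 15.00 and 14.85 in sham and 15.03, 15.56 and 15.50 in OA. The 8-week OA arrays all lay above the sham arrays, by a narrow gap between OA array 1 and sham array 2. The difference was 0.56 ± 0.234 (95% interval 0.04 to 1.08), which was not called (adjusted p = 0.205). It was 0.74 with the muscle level (adjusted p = 0.438) and 1.07 with the macrophage level (adjusted p = 0.136) as a covariate. Dcn and Bgn thus read in opposite directions at 8 weeks.

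Same-numbered OA and sham arrays of one time had positively correlated deviations from their group means. The r was 0.333, 0.36 and 0.527 at 2 weeks and 0.239, 0.237 and 0.119 at 8 weeks. Same-numbered arrays of different times reached 0.241, and the labels do not call the arrays pairs. The number is thus not shown to be a block. At 8 weeks the arrays numbered 1 also had the highest muscle marker level of their group (14.70 in OA and 10.75 in sham). With the replicate number as a block within each time, a fit added after the data were seen, 3 members were called at 8 weeks, against 6.76% of all genes. These were Bgn (adjusted p = 0.042), Dcn (0.56 ± 0.107, adjusted p = 0.0397) and Ogn (-0.88 ± 0.0905, adjusted p = 0.0104). Dcn was higher in OA in each pair, by 0.46, 0.56 and 0.65, and Ogn was lower in each pair, by 0.83, 0.90 and 0.90 log2 units. At 2 weeks the block gave 0 called members and 0.0% of genes.

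The class II members did not pass the test at 8 weeks. Fmod, whose product fibromodulin binds type I and type II collagen, read 15.72, 15.61 and 15.62 in sham and 15.30, 15.34 and 15.66 in OA at 8 weeks. OA array 3 fell among the sham arrays and the other OA arrays lay below them. The difference was -0.21 ± 0.102 (95% interval -0.44 to 0.01, adjusted p = 0.260). Fmod and Chad read close to the highest value of any probe set (16.41 to 16.61 across the arrays), where differences can be compressed. At 8 weeks Dcn in OA arrays 2 and 3 (15.56 and 15.50) and Lum in sham array 2 (15.44) read in the same range.

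Lum, the gene of lumican, read 14.24, 15.44 and 15.11 in sham and 14.33, 15.39 and 15.34 in OA at 8 weeks. Array 1 was the low one in both groups, and the difference between the groups was 0.09 ± 0.362 (95% interval -0.72 to 0.90, adjusted p = 0.926). Prelp, whose product anchors collagen to heparan sulfate, read 14.58, 14.25 and 13.99 in sham against 14.49, 14.25 and 14.62 in OA. These overlapped, with a difference of 0.18 ± 0.212 (95% interval -0.29 to 0.65, adjusted p = 0.679). With the macrophage level as a covariate Prelp turned to -0.37.

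Omd, the gene of osteomodulin, a class II member best known from bone matrix, read 14.27, 14.13 and 14.43 in sham and 14.29, 13.65 and 13.42 in OA at 8 weeks. OA arrays 2 and 3 lay below the sham arrays and array 1 lay among them. The difference was -0.49 ± 0.201 (95% interval -0.94 to -0.04, adjusted p = 0.195). Without OA array 1 at 8 weeks, the array with the highest muscle marker level, it was -0.74 with an adjusted p of 0.0329, and without OA array 3 it was -0.31 with an adjusted p of 0.406. It was -0.87 with the muscle level (adjusted p = 0.183) and -0.50 with the macrophage level (adjusted p = 0.556) as a covariate.

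Ogn, the gene of the class III member osteoglycin (mimecan), was lower in OA in the means of all 4 of its probe sets at 8 weeks, with adjusted p from 0.130 to 0.298. Its leading probe set, the one with the highest mean (1390450_a_at), read 12.63, 13.84 and 13.18 in sham and 11.80, 12.93 and 12.28 in OA. The groups overlapped, since array 2 was the highest and array 1 the lowest in both. The difference was -0.88 ± 0.324 (95% interval -1.60 to -0.15, adjusted p = 0.160). At 2 weeks it read 13.93, 13.75 and 13.46 in sham and 13.54, 13.55 and 13.41 in OA, a difference of -0.21 ± 0.324. The 8-week difference was -0.22 with the muscle level (adjusted p = 0.876) and -0.16 with the macrophage level (adjusted p = 0.921) as a covariate. Both levels largely followed the groups at 8 weeks, so these fits cannot tell a marker level from OA.

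The other 3 Ogn probe sets did not all agree array by array. The second probe set designed for several transcripts, 1385248_a_at, read 12.29, 13.38 and 12.27 in sham and 9.63, 11.91 and 11.43 in OA at 8 weeks. Its groups did not overlap, and its difference was -1.66 ± 0.552 (adjusted p = 0.130; 0.0487 with the block). Probe set 1376749_at read 10.94, 12.47 and 12.73 against 11.92, 10.95 and 10.24, so that OA was higher in pair 1 and lower in the others. Probe set 1383263_at showed the same order, with pairwise differences of 0.50, -2.02 and -3.37. Their differences were -1.01 ± 0.522 (adjusted p = 0.298; 0.344 with the block) and -1.63 ± 0.630 (adjusted p = 0.175; 0.183 with the block). Over the 12 arrays the 2 probe sets marked "a" correlated at 0.91 and the other 2 at 0.953, but the correlations between these sorts were 0.314 to 0.637. These correlations describe probe sets that share libraries, and no p is given.

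**Figure D2:**
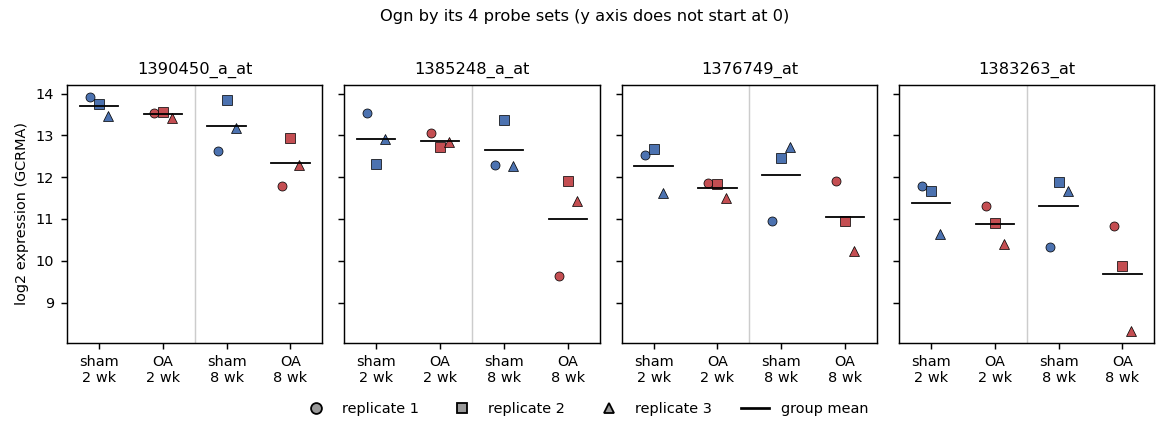
Log2 value (y axis) of the 4 Ogn probe sets in the 12 arrays by group (x axis), with circles, squares and triangles for arrays 1, 2 and 3 and a bar for the group mean. In OA at 8 weeks array 1 is the lowest in the 2 probe sets marked "a" (11.80 and 9.63) and the highest in the other 2 (11.92 and 10.83).

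Chad, the gene of chondroadherin, read 15.71, 15.45 and 15.52 in sham and 15.34, 15.37 and 15.53 in OA at 8 weeks. OA array 3 lay among the sham arrays and the difference was -0.15 ± 0.0968 (95% interval -0.36 to 0.07, adjusted p = 0.420). Chadl, the gene of a chondroadherin-like protein that restrains collagen fibril formation, read 9.89, 9.37 and 9.40 in sham and 9.25, 8.46 and 9.48 in OA in its leading probe set (1381460_at). OA array 3 was above 2 of the sham arrays, and the difference was -0.49 ± 0.387 (adjusted p = 0.508). In the second probe set, 1381197_at, the sham arrays at 9.28, 8.67 and 8.72 all lay above the OA arrays at 8.64, 7.72 and 8.49. That difference, -0.60 ± 0.390, was not called either (adjusted p = 0.409), and the 2 probe sets correlated at 0.971.

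**Figure D3:**
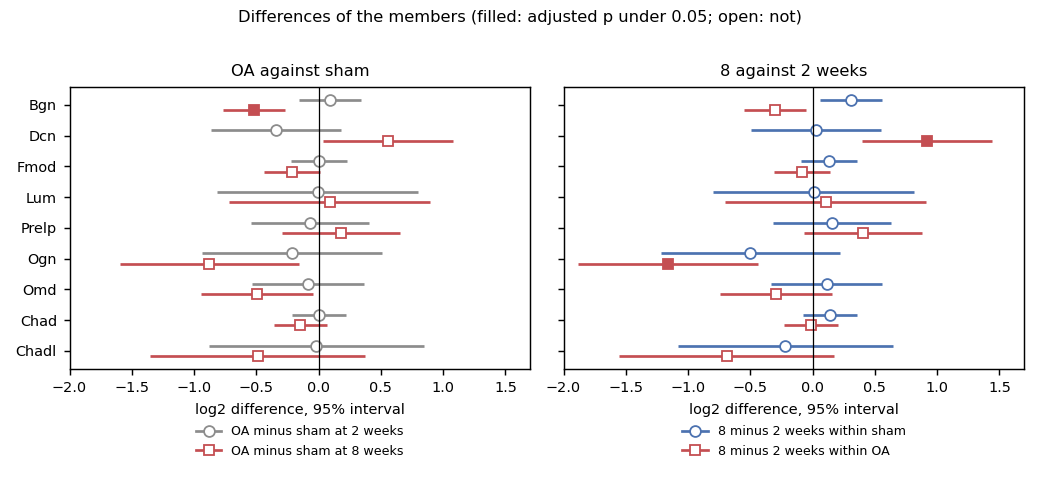
Log2 differences (x axis) of the members (y axis) with 95% intervals from limma. The left panel gives OA minus sham at 2 and 8 weeks, the right panel 8 minus 2 weeks within sham and within OA, and filled points have an adjusted p under 0.05. Bgn is filled for OA minus sham at 8 weeks (-0.52), and Dcn (0.92) and Ogn (-1.16) for 8 minus 2 weeks within OA.

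Whether the OA effect differed between the times was tested directly as an interaction. The change of the effect from 2 to 8 weeks was -0.62 ± 0.158 for Bgn (adjusted p = 0.203), 0.90 ± 0.331 for Dcn (adjusted p = 0.382) and -0.66 ± 0.458 for Ogn (adjusted p = 0.632). None of the 9 members was called by limma, against 0.162% of all genes, and 2 members had an unadjusted p under 0.05, as did 1760 of the 15934 probe sets. With the block within each time, 0 members and 0.4% of genes were called, with adjusted p of 0.145 for Bgn, 0.0786 for Dcn and 0.104 for Ogn. The call on Bgn at 8 weeks and its absence at 2 weeks therefore do not show a difference between the times.

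The time after surgery was compared within each group. Within sham, 0 members were called by limma from 2 to 8 weeks and 1, Bgn, had an unadjusted p under 0.05, while 14.8% of all genes were called and 4287 of the 15934 probe sets had an unadjusted p under 0.05. Bgn (0.31 ± 0.112, adjusted p = 0.0901) and Fmod (0.13 ± 0.102, adjusted p = 0.505) were wholly higher in the sham arrays at 8 weeks than at 2 weeks, a separation seen upward in 21.8% of genes. Ogn read -0.50 ± 0.324 (adjusted p = 0.401).

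Within OA, Dcn rose and Ogn fell between 2 and 8 weeks, against a background of 29.3% of genes called, 16.5% higher and 12.8% lower. The count of 2 among 9 members was thus below the share of all genes. Marker lists also shifted between these arrays. Of 14 skeletal muscle markers 10 were called higher, with a median of 7.39. Some of these averaged below log2 4 at 2 weeks, such as Mybpc2 (2.16 in sham and 2.48 in OA) and Atp2a1 (2.05 and 2.4). The filter kept such genes mainly for their 8-week arrays, so their calls were partly fixed in advance. Called lower were 10 of 15 macrophage, 5 of 5 osteoclast, 6 of 8 osteoblast and osteocyte, and 5 of 7 endothelial markers. So were 2 of 8 cartilage and 2 of 10 synovial fibroblast, tendon and fibrocartilage markers. The part of these shifts in the members' changes was not tested. Dcn went from 14.87, 14.48 and 13.98 to 15.03, 15.56 and 15.50, without overlap. This was a rise of 0.92 ± 0.234 (1.89-fold, adjusted p = 0.0123), which was called with each array left out in turn, at 0.69 to 1.13. Ogn went from 13.54, 13.55 and 13.41 to 11.80, 12.93 and 12.28, also without overlap. The log2 difference was -1.16 ± 0.324, a 2.24-fold fall with an adjusted p of 0.0191. Of its other probe sets, 1385248_a_at was called (-1.88 ± 0.552, adjusted p = 0.0243), and 1376749_at (-0.70, adjusted p = 0.338) and 1383263_at (-1.20, adjusted p = 0.174) were not.

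The fall of Ogn within OA missed the threshold without OA array 1 (adjusted p = 0.0514) or 2 (0.0552) at 2 weeks, and without OA array 1 (-0.89, adjusted p = 0.0665) or 3 (0.0516) at 8 weeks. It also missed it with the macrophage level as a covariate (-0.84, adjusted p = 0.0735). Bgn differed by -0.30 ± 0.112 (adjusted p = 0.0599). Its OA arrays at 8 weeks lay wholly below those at 2 weeks, but narrowly, at 14.49 in array 3 against 14.50 in array 2. Groups were separated downward in 2 members, Bgn and Ogn, and upward in Dcn, against 18.5% and 23.7% of all genes.

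The scale of the arrays bears on these time comparisons. The median probe set differed by 0.09 between the OA arrays at 8 and 2 weeks. Making array medians equal turned this to -0.015, and added quantile normalization turned it to -0.005. The share of higher among called probe sets then went from 63.7% to 52.9% and 50.7% within OA, and from 66.6% to 62% and 51.3% within sham. Bgn within OA was called under both, at -0.41 (adjusted p = 0.0103) and -0.33 (adjusted p = 0.0352). Under equal medians Lum within OA turned from 0.10 to -0.0001, and under quantile normalization Chad turned from -0.01 to 0.06.

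Of the members that lie side by side in the genome, Dcn read 0.56 and its neighbour Lum 0.09 at 8 weeks, while Prelp read 0.18 and its neighbour Fmod -0.21. Ogn and Omd both read lower, at -0.88 and -0.49, but correlated at only 0.12 across the arrays after centring each time. Bgn, Fmod and Chad, which lie apart in the genome, varied together, with r of 0.891 for Bgn and Fmod, 0.813 for Bgn and Chad and 0.851 for Fmod and Chad. Bgn and Dcn ran opposite, with r of -0.597. These are descriptions over 12 arrays that include the OA and sham difference.

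By the same measure, the genes most like Bgn were Ciapin1 (r = 0.952), Igfbp7 (0.952) and Ddx25 (0.951). Those most like Dcn were Eeig2 (0.922), Fmnl2 (0.906) and Tnfrsf26 (0.902), and those most like Ogn were Clec2d2l2 (0.957), Cacng2 (0.952) and Rap1b (0.938).

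Genes whose products work with the family were taken from lists of partners, none of which had a called gene in OA against sham at 2 weeks. For all lists, the shares of all genes called at 8 weeks were 1.03% higher and 2.45% lower. The list of fibril collagens that the family binds also holds the matrix proteins Comp and Matn1. At 8 weeks 16 of its 18 tested genes read lower in OA, and Comp (0.01) and Matn1 (0.15) read higher. Of the 18, 0 were called higher and 4 lower, 12 had an unadjusted p under 0.05, and the median was -0.47 against -0.03 over all genes. Type IX collagen, which coats the type II fibril, fell in all 3 of its chains, Col9a3 by 0.60 ± 0.101 (adjusted p = 0.0158), Col9a2 by 1.04 ± 0.200 (adjusted p = 0.0247) and Col9a1 by 0.48 (adjusted p = 0.0296). Col6a1, a chain of the type VI collagen around chondrocytes that binds biglycan and decorin, fell by 0.44 ± 0.104 (adjusted p = 0.0494). It was named after its value was seen.

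Of 13 genes of chondroitin and dermatan sulfate assembly 0 were called by limma, 4 had an unadjusted p under 0.05 and the median was -0.10. The smallest p-values were those of B4galt7, which adds the first galactose of the linker (-0.37, adjusted p = 0.0545), and Chst14, the dermatan 4-O-sulfotransferase (-0.90, adjusted p = 0.0880). Of 8 genes for keratan sulfate chains and tyrosine sulfation 5 read higher and 3 lower, with a median of 0.19, and 2 had an unadjusted p under 0.05. Tpst1, a sulfotransferase that acts on tyrosines of the core protein and not on the chains, was the only one called and fell by 0.82 ± 0.191 (adjusted p = 0.0491). Among the higher ones, Chst5 (3.74 in sham and 4.34 in OA) and B4galt1 (4.23 and 4.76) lay near the filter at log2 4. Chst5 averaged below log2 4 in the other groups, so its reading higher may be partly fixed by the filter. Both were named after their values were seen.

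Of 12 genes listed for cleavage of the family 1 was called higher and 5 lower in OA at 8 weeks, with a median of -0.78. In direction 1 read higher and 11 lower, and 8 had an unadjusted p under 0.05. Mmp3, stromelysin 1, was higher in OA than in sham by 1.57 ± 0.142 (adjusted p = 0.000771). Its means were 14.93 in OA and 13.36 in sham at 8 weeks, and 14.91 and 14.73 at 2 weeks. The sham mean was thus the one that differed between the times. Ctsk fell by 1.31 (adjusted p = 0.0050) and Mmp9 fell by 3.62 (adjusted p = 0.0050). Both are also among the osteoclast markers, which fell together. Bmp1, the proteinase that removes the propeptide of biglycan and of fibrillar procollagens, fell by 1.05 ± 0.179 (adjusted p = 0.0161). Pcolce, which enhances that processing and is no protease itself, fell by 0.81 ± 0.172 (adjusted p = 0.0352), and Mmp13 fell by 2.51 (adjusted p = 0.0219). Pcolce and Mmp13 were named after their values were seen.

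Among 15 ligands and receptors that bind members, 1 was called, with a median of -0.17. Ccn4, a matricellular protein reported to bind decorin and biglycan, fell by 1.39 ± 0.225 (adjusted p = 0.0133).

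**Figure D4:**
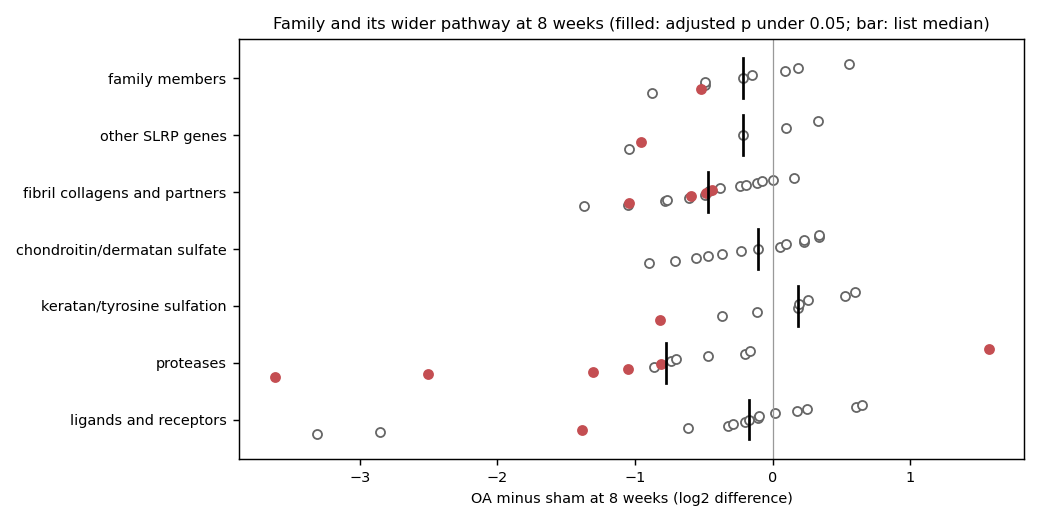
Log2 difference of OA minus sham at 8 weeks (x axis) of each tested gene of the members and partner lists (y axis), filled where the adjusted p was under 0.05, with a bar at the list median. The fibril collagens with Comp and Matn1 (median -0.47) and the genes listed for cleavage (median -0.78) lie mostly below 0, and Mmp3 (1.57) stands above it.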

How the data were processed

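Cartilage RNA from 12 samples was hybridized to 1-colour Affymetrix arrays. The values are the authors' deposited log2 values, made with GCRMA per the submitters' processing notes, version not given in the sources used here. They were used without further normalization. Probe sets were named from the array's annotation, 20832 with exactly 1 symbol, 436 with several and 9831 with none. Those with log2 above 4 in at least 3 of 12 arrays were kept (15934), and 15165 were left out, 57 controls among them. The leading probe set of a gene is the kept one with the highest mean, which gave 9247 genes.

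Group means were fitted with limma (version 3.58.1, under R 4.3.3), whose moderated variances had 8 residual and 1.94 prior degrees of freedom, after the script was tested on simulated data. Errors beside differences are standard errors, and calls are Benjamini-Hochberg adjusted p under 0.05 over all kept probe sets. Called means that threshold throughout. Tables were made with pandas 2.3.3 and numpy 2.4.6 under Python 3.11.15, and plots with matplotlib 3.10.9.

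The members and gene lists were chosen with earlier results of these data known. All members are named. From each partner list the called genes with the smallest p, up to 3 in each direction, are named, or otherwise the 2 with the smallest p, and for called members the 3 genes with the highest correlation after centring each time. The replicate numbers come from the labels. Every same-numbered OA and sham pair of one time correlated above 0.1 in its deviations, while sham arrays of the same number at 2 and 8 weeks did not. Across times in either group, same-numbered arrays correlated from -0.497 to 0.241. The highest was OA array 2 at 2 weeks with sham array 2 at 8 weeks. Pairs of different numbers are not given for comparison. Alternatives were other filters, scalings, array weights, variance trends, blocks on the replicate number, only the arrays compared, and each array left out. Marker levels, centred within each time, were also used as covariates.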

Additional observations from a re-analysis of the deposited data

How the results depend on the processing

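The count of probe sets called at 8 weeks, 552, ranged from 110 to 979 with 1 array left out. It was 362 without a filter, 858 with quantile normalization, 1567 with array weights, 27 with only the arrays compared, and 36 and 185 with the muscle and macrophage levels as covariates. The count of members called, 1, was 0 to 1 with 1 array left out, 2 with array weights, and 0 with only the arrays compared, the muscle level or the macrophage level. With the replicate block within each time, added after the data were seen, 1037 probe sets and 3 members were called at 8 weeks, and 67 probe sets in the interaction. A single replicate block over both times changed the call on Bgn within OA (adjusted p = 0.0346) and no other member's. Same-numbered arrays of different times correlated from -0.497 to 0.241 in their deviations. At 2 weeks 0 to 1 probe sets were called with 1 array left out.

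For the interaction, 22 probe sets became 7 to 80 with 1 array left out, 8 without a filter, 37 with quantile normalization, 36 with equal medians, 130 with array weights, 11 with the muscle level and 130 without both 8-week arrays numbered 1, a setting added after the data were seen. Within sham, 2979 probe sets became 6938 without a filter and 1523 with a filter at log2 6, and 0 members became 1 with array weights or the macrophage level (Bgn in both). Within OA, 5430 became 9461 without a filter, and 1 to 2 members were called with 1 array left out.

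Directions turned in differences that were not called. At 2 weeks, quantile normalization gave -0.0305 for Fmod, -0.0415 for Chad and 0.0059 for Chadl. Equal medians gave 0.0305 for Lum and 0.0188 for Chadl, array weights 0.24 for Chadl, the muscle level 0.0563 for Lum and -0.0009 for Chad, and the macrophage level -0.0049 for Fmod, 0.078 for Lum and -0.0114 for Chad. Prelp turned with the macrophage level, to -0.37 at 8 weeks and -0.25 in the interaction. Within sham, Dcn and Lum gave -0.0235 and -0.0276 with quantile normalization, -0.0398 and -0.0555 with equal medians, -0.058 and -0.34 with the muscle level, and -0.21 and -0.43 with the macrophage level, which turned Chadl to 0.25. Array weights gave -0.0079 for Dcn. Within OA, Chad gave 0.06 with quantile normalization, 0.0013 with array weights and 0.0214 without both arrays numbered 1, and Lum -0.0001 with equal medians. With 1 array left out, the ranges at 2 weeks were -0.0275 to 0.0344 for Fmod, -0.18 to 0.18 for Lum, -0.26 to 0.07 for Prelp, -0.19 to 0.0006 for Omd, -0.0291 to 0.0593 for Chad and -0.26 to 0.40 for Chadl. Lum ranged from -0.26 to 0.43 at 8 weeks and from -0.25 to 0.44 in the interaction. Within sham the ranges were -0.0802 to 0.15 for Dcn, -0.25 to 0.35 for Lum and -0.44 to 0.20 for Chadl, and within OA -0.0811 to 0.45 for Lum and -0.0716 to 0.0214 for Chad. The cause of these shifts was not tested.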

Other observations

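Other genes of the same protein family were measured by 6 further genes with a probe set, of which 5 passed the filter and Podn did not. Tsku, the gene of tsukushi, was the only one of the 5 called for OA against sham at 8 weeks. It read 5.84, 6.22 and 5.93 in sham and 5.18, 4.60 and 5.36 in OA, without overlap, a fall of 0.95 ± 0.196 (limma, adjusted p = 0.0325). Tsku also fell from 2 to 8 weeks, by 0.66 within sham (adjusted p = 0.0396) and by 1.60 within OA (adjusted p = 0.000128). Of all genes, 14.8% were called between the times within sham and 29.3% within OA. Across the 12 arrays it varied with Bgn (r = 0.816 after centring each time).

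Aspn, the gene of asporin and the neighbour of Omd, had the widest spread within a group of these genes. At 8 weeks it read 10.15, 14.10 and 13.18 in sham and 10.69, 12.04 and 11.57 in OA. Array 1 was the lowest in both groups, and the difference was -1.04 ± 1.04 (adjusted p = 0.615). It varied with Lum (r = 0.789) and Ogn (r = 0.783) by their leading probe sets. In those probe sets the arrays numbered 1 were also the lowest at 8 weeks in both groups. The other Ogn probe sets did not show this. OA array 1 at 8 weeks was the highest in 1376749_at (11.92) and 1383263_at (10.83). In 1385248_a_at sham array 3 (12.27) was just below sham array 1 (12.29).

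Optc, the gene of opticin, and Podnl1, the gene of podocan-like protein 1, passed the filter only through the arrays of one time, so no test of time is given for them. Optc averaged 3.06 in sham and 2.97 in OA at 2 weeks, and 4.96 and 5.30 at 8 weeks. Podnl1 averaged 4.0 in sham and 4.02 in OA at 2 weeks, and 2.59 and 2.38 at 8 weeks, near or below log2 4 at both times.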
